A study of Mus musculus with 4 samples.

Results

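The genes described here are 50 S phase and DNA replication genes, taken by name from the 36528 gene rows of the count tables. All 50 were found in each of the 4 tables. They fall into 7 roles: 10 helicase genes (Mcm2 to Mcm7, Mcm10, Gins1, Gins2, Cdc45), 4 licensing genes (Orc6, Cdc6, Cdt1, Gmnn), 14 polymerase, clamp and fork genes, 5 nucleotide supply genes, 8 chromatin assembly and maintenance genes, 6 genes of S phase control and 3 repair genes. The data are single-cell RNA sequencing libraries of dissociated cortex from C57BL/6 mouse embryos at E16.5. There were 2 libraries of mice labelled HET and 2 of mice labelled COP1 KO. HET is not defined in the labels, and COP1 KO samples carry the term CKO in their titles, with no Cre driver or target cell named. COP1 recruits substrates, several transcription factors among them, to a ubiquitin ligase.

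In the cortex at this age, radial glia divide at the ventricle and give rise to intermediate progenitors, which divide again and give rise to excitatory neurons. Progenitors of the ganglionic eminences, below the cortex, divide and give rise to inhibitory neurons. Before S phase, the origin recognition complex, CDC6 and CDT1 load the MCM helicase onto origins. CDC45 and the GINS complex then turn it into the active helicase, and geminin (Gmnn) blocks a second loading. At the fork, primase and the polymerases copy the strands, with PCNA as the sliding clamp and the RFC proteins as its loader. Many of these genes are switched on at the G1 to S transition by E2F transcription factors, and post-mitotic neurons no longer replicate their DNA.

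Because E2F control is the best known shared feature of these genes, their promoters were searched for E2F letters. RefSeq windows (GRCm38.p6, 250 bases before to 50 after an annotated start) were at hand for 38 of the 50 genes. Windows for Mcm4, Gins1, Gins2, Rfc2, Gmnn, Ccne2, Pole, Atad2, Tipin, Dscc1, Exo1 and Usp1 were not used here. The letters searched on both strands were TTTGGCGC, TTTGCCGC, TTTCGCGC and TTTCCCGC, which can overlap each other. They occurred in 15 of the 38 genes (39.5%), against 2.6% of all 27025 genes with a window and 3.95% of the genes whose window GC content lay in the interquartile range of the replication genes. The CCAAT letters occurred in 63.2% of the replication genes, against 41.1% of all genes and 39% of those of like GC content. The letters TTTGAA, the core of the cell cycle homology region of many G2 and M phase genes, occurred in 13.2%, against 20.2% and 10.8%, so that the order depended on the background. A match describes these letters only, and it is not evidence of binding. The stretches below are the 160 bases just before 1 annotated start of 6 genes from 5 roles, read 5′ to 3′ on the gene's strand, with the E2F letters in capitals. They are shown because they cover single, overlapping and repeated matches. Mcm6 lies at chr1:128359706-128359865 on the minus strand, Mcm5 at chr8:75109349-75109508 on the plus strand, Cdc6 at chr11:98907991-98908150 on the plus strand, Hells at chr19:38930830-38930989 on the plus strand, Dtl at chr1:191575545-191575704 on the minus strand and Pola1 at chrX:93632156-93632315 on the minus strand.
Mcm6: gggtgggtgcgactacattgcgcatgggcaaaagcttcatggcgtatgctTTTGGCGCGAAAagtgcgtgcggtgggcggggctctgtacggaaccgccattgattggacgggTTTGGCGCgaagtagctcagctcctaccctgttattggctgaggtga
Mcm5: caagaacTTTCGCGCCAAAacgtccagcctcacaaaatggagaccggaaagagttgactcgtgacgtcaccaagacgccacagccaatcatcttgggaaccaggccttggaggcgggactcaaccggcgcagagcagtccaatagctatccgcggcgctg
Cdc6: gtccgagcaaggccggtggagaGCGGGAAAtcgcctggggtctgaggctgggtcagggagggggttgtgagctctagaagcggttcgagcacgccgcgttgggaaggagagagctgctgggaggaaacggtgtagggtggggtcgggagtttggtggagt
Hells: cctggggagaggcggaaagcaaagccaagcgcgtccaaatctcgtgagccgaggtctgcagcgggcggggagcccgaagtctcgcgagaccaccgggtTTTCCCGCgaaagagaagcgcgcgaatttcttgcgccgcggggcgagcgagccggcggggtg
Dtl: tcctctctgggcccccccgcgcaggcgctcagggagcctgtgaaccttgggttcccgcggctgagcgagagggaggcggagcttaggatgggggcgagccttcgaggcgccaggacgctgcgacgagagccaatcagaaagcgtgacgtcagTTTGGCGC
Pola1: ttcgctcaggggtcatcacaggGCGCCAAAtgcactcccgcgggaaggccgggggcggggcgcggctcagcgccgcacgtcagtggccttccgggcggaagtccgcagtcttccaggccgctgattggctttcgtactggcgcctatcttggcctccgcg
In Mcm6 the window held 3 matches, of which 2 overlapped (from base -110 and -106) and 1 began at -47. In Mcm5 the 2 matches overlapped, from -153 and -149. The single matches of Cdc6 and Pola1 both began at -138, that of Hells at -62 and that of Dtl at -8.

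After filtering, 18781 cells remained, with 4545 and 4313 cells in the HET libraries and 5195 and 4728 in the COP1 KO libraries. Their summed counts ranged from 26518034 to 27872071 per library and the median depth from 4505 to 5475 counts per cell, lowest in COP1 KO replicate 1. Cop1 itself appears as Rfwd2, an earlier symbol, and had 32 and 39.2 CPM (the gene's counts per 1000000 counts of all genes) in the HET libraries and 30.5 and 29.7 in the COP1 KO libraries. Counts of 3′ ends do not show whether the gene is intact, and the genotype is not checked by them. To keep the replication genes out of the definition of cell classes, cells were clustered without them, without 60 G2 and M phase genes and without 104 histone gene rows. Other cell cycle genes stayed in, and dividing cells of 2 classes still formed clusters of their own. Radial-glia-like cells (cluster 3) numbered 281 and 298 in the HET and 388 and 337 in the COP1 KO libraries. Intermediate-progenitor-like cells formed cluster 9 (220, 243, 257 and 220 cells, in the same order) and the dividing cluster 18 (71, 59, 94 and 57 cells). Ganglionic-eminence-progenitor-like cells formed cluster 14 (123, 173, 218 and 196 cells), whose 10 leading genes by fold included the cell cycle genes Ccnd2, Top2a and Birc5 and the member Cdca7, and Rrm2 was among those of cluster 18. Excitatory-neuron-like cells numbered 2460, 2187, 2747 and 2355. The 2 libraries of a genotype are separate samples in the labels, and 173 cell barcodes occurred in more than 1 library. The labels name no litter or batch, so p-values measure only the spread between these samples.

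All 50 genes were higher in radial-glia-like cells than in excitatory-neuron-like cells. Their summed level was 6530 and 5890 CPM in the HET and 6130 and 5590 CPM in the COP1 KO radial-glia-like cells. In the neurons it was 997, 1010, 1020 and 1020 CPM. All 50 passed the test (edgeR quasi-likelihood with the library as a block, Benjamini-Hochberg adjusted p under 0.05), where 36.8% of the 14105 genes tested were called higher. The median log2 difference of the 50 was 3.10, against -0.04 over all genes. Over each role the median ran from 2.23 in the polymerase, clamp and fork genes to 5.13 in the 4 licensing genes.

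The differences ranged widely within roles. Clspn, which encodes claspin, the adaptor that stabilises forks and passes checkpoint signals, had 77.2, 71.5, 78.3 and 80.1 CPM in radial-glia-like cells and 0.266 to 0.648 CPM in neurons. Its log2 difference of 7.04 ± 0.16 (SE) was the highest of the 50 (edgeR adjusted p = 3.59e-14). Mcm3, a subunit of the helicase ring, had 204, 176, 172 and 147 CPM against 1.71 to 2.78 CPM, a log2 difference of 6.12. Cdc6, which loads the ring, had 36.1, 25.7, 29.6 and 29.7 CPM against 0.259 to 0.433 CPM, a log2 difference of 6.24. E2f8, a repressor among the E2F factors, had 45.2, 42.4, 28.3 and 32.2 CPM against 0.263 to 0.583 CPM, a log2 difference of 6.34. In each of these genes every progenitor library lay far above every neuron library.

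Other members had more counts in neurons. Orc6, a subunit of the origin recognition complex, had 128, 109, 117 and 104 CPM in radial-glia-like cells and 86.3, 85.6, 84.2 and 88.5 CPM in neurons. Its log2 difference, after scaling, was 0.22 ± 0.07 (edgeR adjusted p = 0.00985). Without HET replicate 1 it was 0.16 and no longer passed (adjusted p = 0.0693), and without the filter on low counts it was 0.11 (adjusted p = 0.217). Rfc3, a clamp loader subunit, had 140, 129, 141 and 143 CPM against 58.2 to 63.8 CPM, a log2 difference of 0.98. Mcm7 averaged 230.0 ± 14.7 CPM (SD, n = 4) against 80.9 ± 2.76 CPM, and Nasp, a histone chaperone, 403 ± 20.5 CPM against 133 ± 6.09 CPM. Dut, which removes dUTP from the nucleotide pool, averaged 331 ± 33.2 CPM against 81.5 ± 3.61 CPM. Nasp, Orc6, Dut, Mcm7, Rfc2 and Rfc3 together supplied 50.4% of the counts of the 50 genes in neurons. Thus the neuronal counts were concentrated in a few members, while Clspn, Cdc6, E2f8, Mcm10 and Exo1 each lay below 1 CPM there on average.

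**Figure D1:**
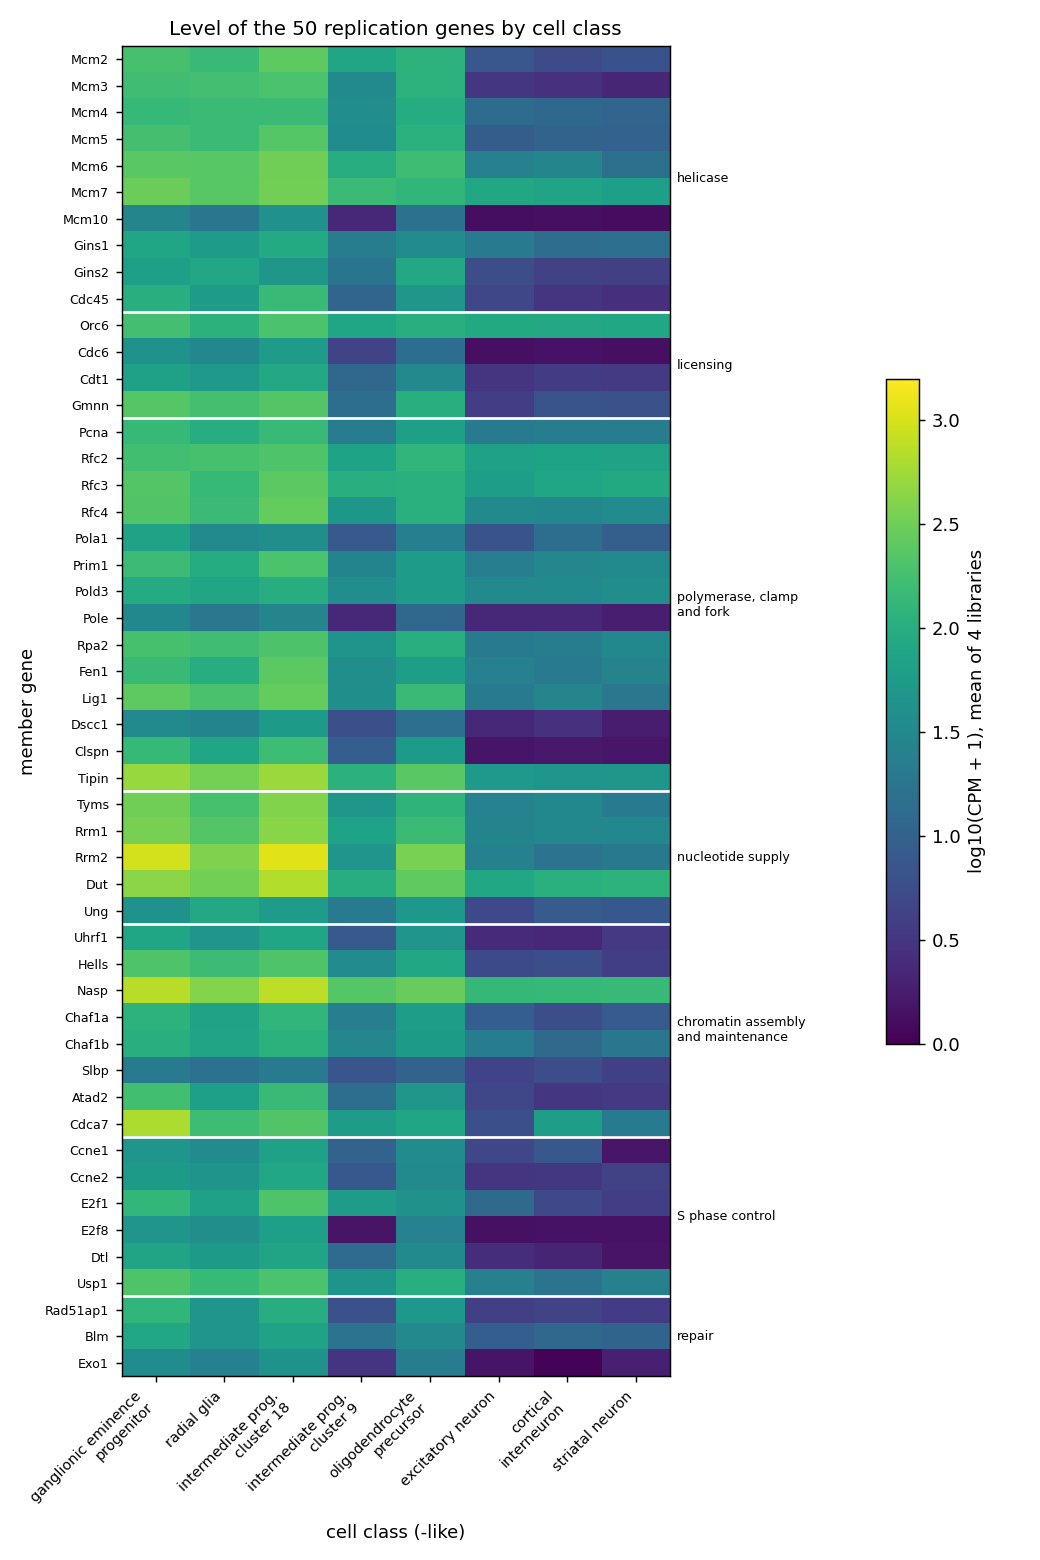
Level of each of the 50 genes (rows, grouped by role) in 8 classes of cells (columns), as log10(CPM + 1) of the mean of the 4 libraries. The columns of the ganglionic eminence progenitors, radial glia and intermediate progenitor cluster 18 are bright throughout, and the 3 neuron columns are dark except for genes such as Nasp, Orc6, Dut and Mcm7.

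With cells clustered as above, the per-cell view gave the same order of the radial glia, ganglionic eminence progenitor, intermediate progenitor and excitatory neuron classes. Each cell was thinned to 2000 counts, and a cell was scored when 3 or more of the 50 genes had a count. In neurons, which serve as the background, 32%, 31.9%, 31.4% and 33.2% of cells reached that number (library order HET 1, HET 2, COP1 KO 1, COP1 KO 2). How much of this came from free RNA in the droplets was not tested. With 5 or more genes the neuronal share was 4.51% to 5.53%. The share with 3 or more was 94.2% to 98.4% in ganglionic-eminence-progenitor-like cells and 56% to 62.2% in intermediate-progenitor-like cells. Within the latter it was 96.6% to 100% in cluster 18 and 46.1% to 50% in cluster 9. The summed level likewise split that class, at 10800, 10600, 9800 and 9900 CPM in cluster 18 and 1890, 1850, 1790 and 2390 CPM in cluster 9. Neuron-like cells outside the excitatory class lay close to it, with 1060 to 1130 CPM in cortical-interneuron-like and 1060 to 1080 CPM in striatal-projection-neuron-like cells. Oligodendrocyte-precursor-like cells changed place. Their summed level, 2730, 4590, 5390 and 4460 CPM, lay below that of radial-glia-like cells in each library. Their share with 3 or more was 85.8% and 75% in the COP1 KO libraries, above the 76.4% and 74.5% of radial-glia-like cells. In the HET libraries it was lower, 44.1% and 58.3% against 82.9% and 83.2%. The top of the order depended on the clustering. With all variable genes, the share with 3 or more was 80.1%, 79.1%, 83.2% and 81.6% in ganglionic-eminence-progenitor-like cells. In radial-glia-like cells it was then 83.2%, 83.4%, 75.8% and 74.5%, higher in both HET libraries and lower in both COP1 KO libraries.

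**Figure D2:**
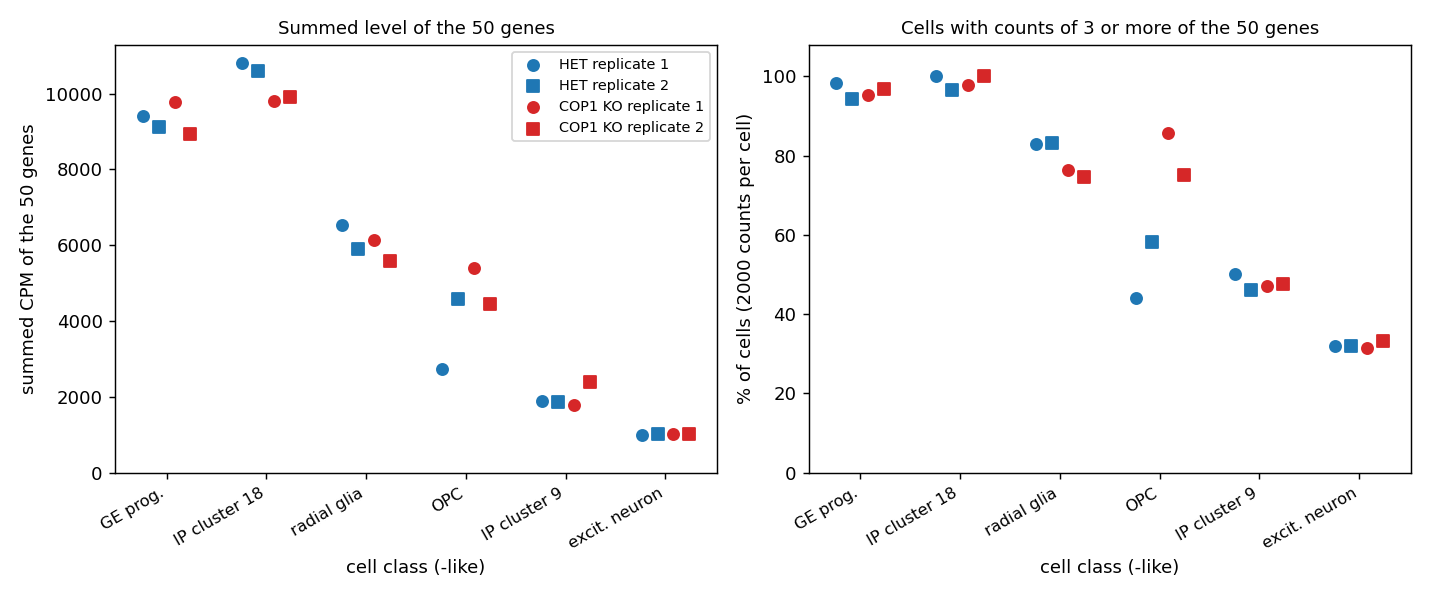
Summed CPM of the 50 genes (left) and percentage of cells, thinned to 2000 counts, with counts of 3 or more of them (right) by cell class. GE prog. stands for ganglionic eminence progenitor, IP for intermediate progenitor and OPC for oligodendrocyte precursor. Each point is 1 library (blue HET, red COP1 KO). Intermediate progenitor cluster 18 holds the highest sums, 9800 to 10800 CPM, and excitatory neurons the lowest, 997 to 1020 CPM. In the right panel the 2 genotypes separate in radial glia and in oligodendrocyte precursors.

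Taken over all their cells, intermediate-progenitor-like cells had lower levels than radial-glia-like cells for most of the genes. Of the 50, 33 were lower and 1 was higher, where 28.5% and 28.2% of the 10966 genes tested were called lower and higher. The median log2 difference was -0.43, against 0.01 over all genes. Among helicase genes the most negative was Gins2, a subunit of the GINS complex, with 25.8, 22.1, 32.2 and 29.5 CPM against 93.4, 69.8, 86.1 and 77.6 CPM (log2 difference -1.57 ± 0.12, edgeR adjusted p = 8.33e-10). Ung, the uracil-DNA glycosylase, averaged 32.4 ± 5.12 CPM (SD, n = 4) against 84.7 ± 12.7 CPM, and Gmnn 83.1 ± 13.2 CPM against 177 ± 25.2 CPM. The 1 gene that was higher was E2f1, an activating E2F factor, with 117, 104, 95.9 and 114 CPM against 68.6, 61.6, 67.8 and 67.3 CPM (log2 difference 0.71 ± 0.09, adjusted p = 9.78e-07). Mcm2, Cdc45, Rrm2, Nasp and Fen1 were among the 16 members that did not pass, with log2 differences of -0.08, -0.04, 0.13, 0.02 and 0.15. This split depended on the clustering. When cells were clustered with all variable genes, 19 members among them, 14 members were higher and 8 lower, and DESeq2 called 1 higher and 20 lower. The shares of all genes called in these 2 settings are not given here, so these counts have no background beside them.

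Ganglionic-eminence-progenitor-like cells had higher levels than radial-glia-like cells for 42 of the 50 genes and lower levels for 2, where 26.5% and 27% of the 10399 genes tested were called higher and lower. The median log2 difference was 0.57. This class was cluster 14 alone. Cluster 15 (543 cells, with Dlx1, Dlx2 and Sp9 among its leading genes) was left unnamed and is not in it. A member had a count in 12.7% of cells of cluster 15 on average, against 41.4% in cluster 14 and 36.9% in cluster 3. With all variable genes, clusters of 649 and 578 cells formed the class, and the members called in that setting are not given here. Cdca7, which recruits the chromatin remodeller HELLS, had 733, 590, 636 and 634 CPM against 175, 165, 168 and 133 CPM (log2 difference 2.09 ± 0.07, edgeR adjusted p = 3.02e-20). Atad2, a bromodomain ATPase, averaged 167 ± 9.09 CPM against 63.1 ± 10.9 CPM, and Rad51ap1, which acts in recombination repair, 125 ± 7.28 CPM against 47.8 ± 3.84 CPM. Rrm2, the small subunit of ribonucleotide reductase, which makes deoxynucleotides, had 902, 881, 1130 and 923 CPM against 377, 336, 449 and 378 CPM. The 2 lower genes were Ung, with 45, 43.6, 43.8 and 41.7 CPM against 102, 87.3, 75.2 and 74.7 CPM, and Gins2 (log2 difference -0.31, adjusted p = 0.0419). The call for Gins2 was lost without HET replicate 1 (adjusted p = 0.0545) and without COP1 KO replicate 2 (adjusted p = 0.397).

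In these sums the number of dividing cells and the level per dividing cell cannot be told apart. Cells with 10 or more counts of the 60 G2 and M phase genes, of 2000 thinned counts, were 88.6%, 91.9%, 84.7% and 91.2% of ganglionic-eminence-progenitor-like cells. They were 54.4%, 54%, 44% and 46.9% of radial-glia-like cells, 22.2% to 28.1% of intermediate-progenitor-like cells and 0.0914% to 0.17% of excitatory-neuron-like cells. The classes were therefore compared again among such cells alone, a comparison chosen after seeing the data. Among them, 32 of the 50 genes were higher in intermediate-progenitor-like than in radial-glia-like cells and 1 was lower, where 18.6% and 19.3% of the 9177 genes tested were called higher and lower. The median log2 difference was 0.43. E2f1 had 198, 204, 175 and 214 CPM against 64.1, 51.3, 65.5 and 59.8 CPM (log2 difference 1.73 ± 0.12, edgeR adjusted p = 2.5e-14). Rrm2 had 1200, 1140, 1100 and 937 CPM against 480, 462, 664 and 528 CPM, and Fen1, the flap endonuclease that trims Okazaki fragments, averaged 232 ± 45.2 CPM against 122 ± 14.6 CPM. The lower gene was again Gins2, with 34.4, 34, 49.1 and 61.1 CPM against 84.9, 67, 87.3 and 76.1 CPM (log2 difference -0.82). DESeq2 called 18 higher and 1 lower, and the share of all genes it called is not given here. Cells with 10 or more counts of the G2 and M phase genes were not alike in level. In radial-glia-like cells with 30 or more, the 50 genes summed to a mean of 5480 CPM. In the rest of these radial-glia-like cells the mean was 9730 CPM. Whether the classes held the same mix of such cells was not tested, so the restriction does not isolate the level per dividing cell.

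In the same restriction, ganglionic-eminence-progenitor-like cells were higher than radial-glia-like cells for 30 of the 50 genes and lower for 4, where 23.9% and 24.7% of the 9555 genes tested were called higher and lower. The 4 lower genes were Mcm4, Gins2, Rfc2 and Ung. Cdca7 kept a log2 difference of 2.05 ± 0.07, Atad2 of 1.07 and Rad51ap1 of 1.04. E2f1 stood at 1.08, averaging 122 ± 8.53 CPM against 60.2 ± 6.37 CPM. DESeq2 called 17 higher and 1 lower, again without the share of all genes beside it.

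**Figure D3:**
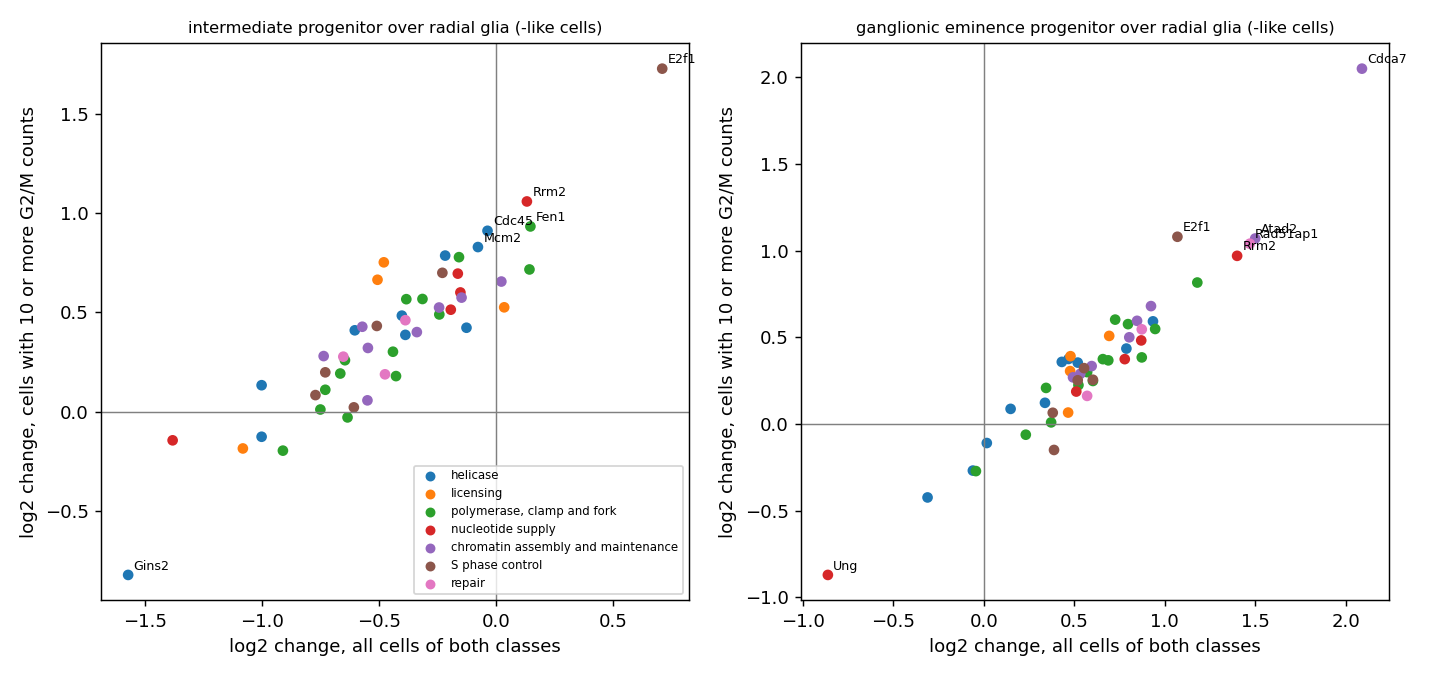
Log2 difference of each of the 50 genes (points, coloured by role) between intermediate-progenitor-like and radial-glia-like cells (left) and between ganglionic-eminence-progenitor-like and radial-glia-like cells (right). The x axis takes all cells and the y axis only cells with 10 or more G2 and M phase counts. On the left most points lie below 0 on the x axis and above 0 on the y axis, with E2f1 at the top and Gins2 at the bottom. On the right Cdca7 lies above 2 on both axes and Ung near -0.87.

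Radial-glia-like cells were then divided by their counts of G2 and M phase genes, none of which is among the 50. The division first planned, 5 or more counts against 0, left 1, 1, 6 and 7 cells without a count and could not be read (5 of 49 genes called higher, Mcm4, Rpa2, Tyms, Rrm1 and Rrm2, where 1.03% of 8576 genes were, and none of them without COP1 KO replicate 1). Limits of under 5, 10 to 29, and 30 or more counts were therefore set after seeing the data. The summed level of the 50 genes was 3770, 2630, 3100 and 2710 CPM under 5 counts. It was 10700, 9050, 10200 and 8960 CPM at 10 to 29 counts and 5270, 5810, 5520 and 5320 CPM at 30 or more. In each library the middle group held the highest sum, and the 3 groups did not overlap. The smallest library held 75 cells under 5 counts, 55 at 10 to 29 and 94 at 30 or more. The order of the groups in time was not tested.

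From under 5 to 10 to 29 counts, all 48 of the 50 genes that passed the filter on low counts were higher (12.2% of 7639 genes were called higher). The median log2 difference was 1.78, and 50 of 50 were higher in all 4 libraries. E2f8 was higher by 4.58 ± 0.45 on the log2 scale and Rrm2 by 3.22 (edgeR adjusted p = 1.33e-17). Dscc1, part of the alternative clamp loader that supports sister chromatid cohesion, was higher by 4.01. Under 5 counts E2f8 and Dscc1 lay near the floor, at means of 3.09 (SD 5.08) and 3.22 (SD 1.42) CPM, against 80.1 CPM for Rrm2. Cdca7 differed least, by 0.65. From 10 to 29 to 30 or more counts, 40 of 50 genes were lower and 0 higher, where 5.48% and 6.36% of 8118 genes were called lower and higher. The median log2 difference was -0.81. The genes called by edgeR fell in every role, 8 of 10 helicase genes, 4 of 4 licensing genes, 12 of 14 polymerase, clamp and fork genes, 4 of 5 nucleotide supply genes, 7 of 8 chromatin genes, 4 of 6 control genes and 1 of 3 repair genes. Without HET replicate 1 it was 34 of 50, and with DESeq2 28. The shares of all genes called in these settings are not given here.

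The size of that drop separated the members. Ung had 180, 153, 134 and 132 CPM at 10 to 29 counts and 7.09, 5.33, 5.72 and 9.04 CPM at 30 or more (log2 difference -4.40 ± 0.22, edgeR adjusted p = 3.36e-21). Ccne2, which encodes cyclin E2, the CDK2 partner that starts S phase, went from 127, 166, 104 and 76.8 CPM to 22.5, 25.6, 11.4 and 12.4 CPM. Cdc6 went from 86.8, 49.6, 67.2 and 65.3 CPM to 9.46, 14.9, 7.14 and 14.7 CPM. In all 3 genes every library of the group with 30 or more counts lay below every library of the middle group. Chaf1b, a subunit of the chromatin assembly factor that places histones behind the fork, fell by 2.02 on the log2 scale, and Gins2 by 1.79. Cdt1, the other loader of the helicase ring, had a ratio of mean levels of 0.228, and Mcm6 one of 0.303. At the other end was Rrm1, the large subunit of ribonucleotide reductase. It had 309, 272, 291 and 296 CPM in the middle group and 279, 327, 271 and 293 CPM at 30 or more counts. Usp1, the deubiquitinase that acts on PCNA, had a ratio of mean levels of 0.97, Blm, a helicase of recombination repair, 0.904, and Rad51ap1 0.842. None of these 4 passed the test, and in all 4 the groups overlapped. The drop was not limited to genes with E2F letters in the window shown above. The median ratio was 0.503 in the 15 genes with them and 0.587 in the 23 without, with ranges of 0.172 to 0.832 and 0.0453 to 1.

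**Figure D4:**
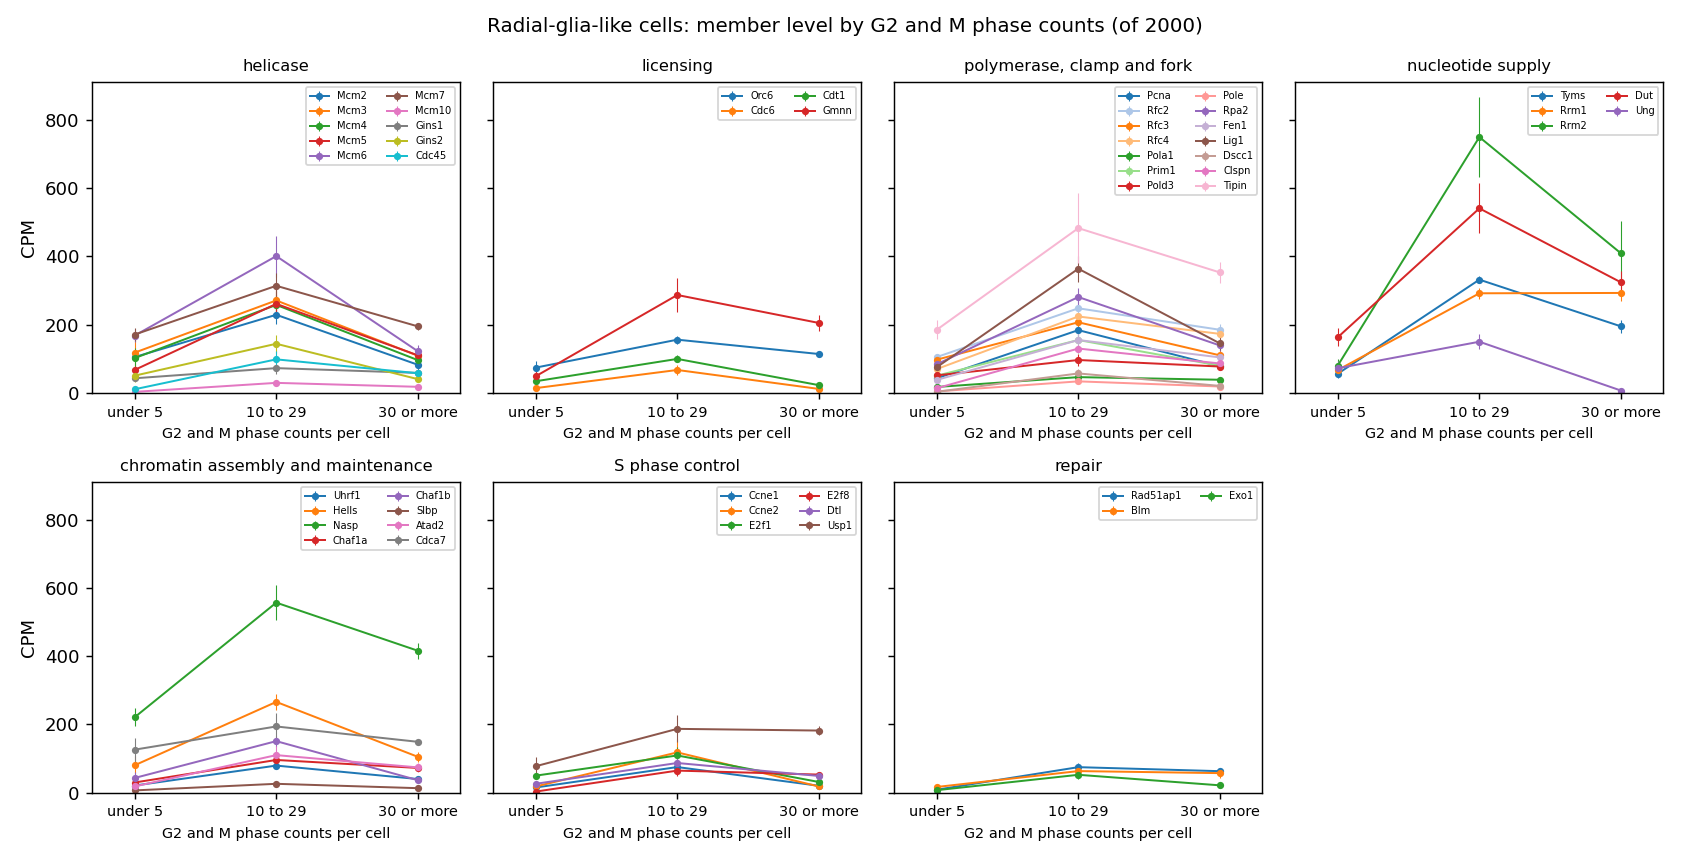
Mean CPM (± SD, n = 4 libraries) of each of the 50 genes in radial-glia-like cells with under 5, 10 to 29, or 30 or more counts of the 60 G2 and M phase genes, of 2000 thinned counts, in a panel per role. The lines peak in the middle group for 49 of the 50 genes by mean. Rrm2 reaches 750 CPM there, Ung drops to 6.79 CPM in the last group, and Rrm1 stays at 292 and 293 CPM.

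The study's own comparison is between genotypes. In the whole library 0 of the 50 genes passed edgeR at an adjusted p under 0.05, where 0.00589% of the 16977 genes tested, 1 gene, was called. DESeq2 also called 0, and 8 of the 50 had an unadjusted edgeR p under 0.05, against 10.5% of all genes. Of the 50, 46 had a log2 difference above 0 (median 0.12, against 0.00 over all genes, of which 50.6% were above 0). In 22 of them both COP1 KO libraries lay above both HET libraries, as they did in 19.4% of all genes. Uhrf1, which reads newly copied DNA for maintenance methylation, had the lowest p, with 8.85 and 9.4 CPM in HET and 12.3 and 12.3 CPM in COP1 KO (log2 difference 0.45 ± 0.11, edgeR adjusted p = 0.312). Chaf1b had 26.4 and 27.2 CPM against 33.2 and 31.4 CPM, Mcm10 3.23 and 3.21 CPM against 4.45 and 4.66 CPM, and Clspn 13.3 and 15.8 CPM against 19.2 and 18.1 CPM. The summed level of the 50 was 1910 and 2010 CPM in HET and 2180 and 2040 CPM in COP1 KO. In such sums over all cells, more dividing cells and more RNA per dividing cell cannot be told apart. Radial-glia-like cells made up 6.18% and 6.91% of the HET and 7.47% and 7.13% of the COP1 KO cells. Ganglionic-eminence-progenitor-like cells were 2.71% and 4.01% against 4.2% and 4.15%, and oligodendrocyte-precursor-like cells 0.748% and 0.835% against 2.21% and 2.96%. The part of these shares in the result was not tested. Without COP1 KO replicate 2, 3 genes passed as higher, Lig1, Tipin and Rrm2.

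Within each class, too, no member passed. In radial-glia-like cells 0 of the 50 genes passed edgeR or DESeq2, where 3.01% of 11638 genes passed edgeR, and 5 of the 50 had an unadjusted edgeR p under 0.05, against 14.6% of all genes. Of the 50, 32 had a log2 difference below 0 (median -0.05), and in 17 both COP1 KO libraries lay below both HET libraries, as in 27.3% of all genes. The 3 lowest p-values belonged to S phase control genes. E2f8 had 45.2 and 42.4 CPM in HET and 28.3 and 32.2 CPM in COP1 KO (log2 difference -0.49 ± 0.16, edgeR adjusted p = 0.198). Usp1 had 166 and 153 CPM against 127 and 133 CPM, and Ccne2 50.8 and 55.6 CPM against 43.9 and 28.9 CPM. Rrm2 went the other way, with 377 and 336 CPM against 449 and 378 CPM (log2 difference 0.26, adjusted p = 0.312), where 378 CPM in COP1 KO replicate 2 lay next to 377 CPM in HET replicate 1. Ung had 102 and 87.3 CPM in HET and 75.2 and 74.7 CPM in COP1 KO, and Atad2 averaged 71.3 and 54.9 CPM. Leaving out a COP1 KO library changed single calls. Ccne2 passed as lower without replicate 1 (log2 difference -0.86, adjusted p = 0.0249), and Rrm2 as higher without replicate 2 (0.40, adjusted p = 0.0175). Among radial-glia-like cells with 10 or more G2 and M phase counts 0 of 50 passed edgeR or DESeq2 (2.88% of 10341 genes passed edgeR), 4 had an unadjusted p under 0.05 (12.8% of all genes), and the median log2 difference was 0.00.

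In intermediate-progenitor-like cells 0 of 50 passed edgeR or DESeq2 (0.463% of 10366 genes passed edgeR), and 5 had an unadjusted p under 0.05 (11.1% of all genes). Rfc3 had the lowest p, with 132 and 134 CPM in HET and 174 and 167 CPM in COP1 KO (log2 difference 0.40 ± 0.11, edgeR adjusted p = 0.195). Nasp had 380 and 371 CPM against 447 and 426 CPM, and Atad2 51.7 and 44.2 CPM against 66.4 and 64.4 CPM. Gmnn, Chaf1b and Fen1 followed, with log2 differences of 0.37, 0.39 and -0.30. In ganglionic-eminence-progenitor-like cells 0 of 50 passed edgeR or DESeq2 (0.0226% of 8842 genes passed edgeR), and 2 had an unadjusted p under 0.05 (7.16% of all genes). Those were Uhrf1, with 64.3 and 64.2 CPM against 87.5 and 81.4 CPM, and Mcm10, with 17.7 and 24.1 CPM against 40.4 and 28.9 CPM. Rrm2, Hells, Rpa2 and Cdt1 had log2 differences of 0.25, -0.25, -0.20 and 0.41. Without COP1 KO replicate 2, Rrm2 passed as higher (log2 difference 0.41, adjusted p = 0.00571). In excitatory-neuron-like cells 0 of the 45 members that passed the filter were called by edgeR or DESeq2, as were 0% of 14572 genes by edgeR, and 3 had an unadjusted p under 0.05 (9.24% of all genes). Those 3 were Cdca7, Pole and Pola1, with log2 differences of 0.49, 0.86 and 0.40, and Tipin, Rrm2 and Rad51ap1 followed at 0.17, 0.25 and 0.43.

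**Figure D5:**
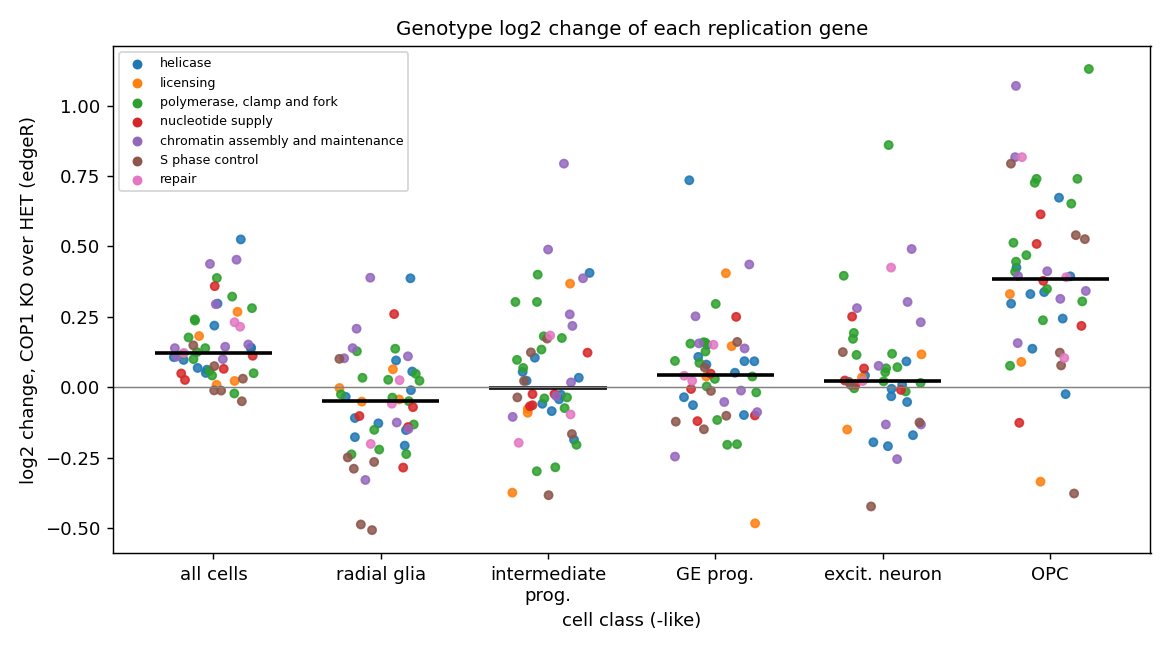
Log2 difference between COP1 KO and HET (y axis, edgeR) of each replication gene that passed the filter, in all cells and in 5 classes, coloured by role. GE prog. stands for ganglionic eminence progenitor and OPC for oligodendrocyte precursor, and black bars mark the medians. The medians lie at 0.12 in all cells, between -0.05 and 0.05 in the radial glia, intermediate progenitor, ganglionic eminence progenitor and excitatory neuron classes, and at 0.38 in oligodendrocyte precursors, where no gene passed the test with the filter.

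An interaction term between class and genotype compared the genotype difference of intermediate-progenitor-like cells with that of radial-glia-like cells. Of the 50 genes 1 passed, where 0.351% of 11691 genes were called in that direction. It was Atad2, with 77.2 and 65.5 CPM in HET and 57.8 and 52 CPM in COP1 KO radial-glia-like cells, and the opposite order in intermediate-progenitor-like cells. The difference of the log2 differences was 0.82 ± 0.20 (edgeR adjusted p = 0.0283). Leaving out any 1 library kept the value between 0.77 and 0.88 and raised the adjusted p to 0.112 or more, and DESeq2 did not call it. Rrm2, Gmnn, Usp1, Hells and Rfc3 came next, with differences of -0.32, 0.41, 0.38, 0.36 and 0.27 that did not pass.

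By cells rather than sums, the share of radial-glia-like cells with counts of 3 or more of the 50 genes was 82.9% and 83.2% in the HET libraries, against 76.4% and 74.5% in the COP1 KO libraries. The difference of -7.62 percentage points exceeded the spread within the genotypes (SD 0.214 and 1.37, n = 2 each). It was -5.02 points with 2 or more genes and -2.7 points without thinning (95% and 97.3% against 92.3% and 94.7%), where the genotypes did not overlap either. The exact two-sided permutation p was 0.33, the smallest that 2 against 2 libraries allow. The exact binomial 95% intervals, which cover counting error only, were 78% to 87.1% in HET replicate 1 and 69.5% to 79.1% in COP1 KO replicate 2. The share with 10 or more G2 and M phase counts was lower too, by 8.77 points (54.4% and 54% against 44% and 46.9%, exact permutation p = 0.33). Over the whole list of 12 radial glia markers, 2 were higher and 4 lower in both COP1 KO libraries than in both HET libraries. Their summed level was 18900 and 19600 CPM in HET and 17300 and 16200 CPM in COP1 KO, and none was at 0. The 7 oligodendrocyte precursor markers summed to 35.5 and 26.5 CPM against 72.2 and 105 CPM in these cells, where Pdgfra and Sox10 each lay between 0 and 1.52 CPM. Their part in the result was not tested. With thinning, 3 or more genes and this clustering, the shares of the genotypes overlapped in the other progenitor classes and in neurons. Without thinning they did not overlap in intermediate-progenitor-like cells (89.7% and 88.1% in HET, 79.2% and 83% in COP1 KO). Their difference was -7.77 points, against -4.5 in neurons and 0.526 in ganglionic-eminence-progenitor-like cells, both overlapping. Thus the unthinned difference was not limited to radial-glia-like cells. The part of depth in it was not tested. With 5 or more genes after thinning, cluster 18 of the intermediate progenitors had 98.6% and 94.9% in HET, against 90.3% and 86% in COP1 KO (exact permutation p = 0.33).

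Oligodendrocyte-precursor-like cells, added after seeing the data, showed the opposite. Their share with 3 or more of the 50 genes was 44.1% and 58.3% of 34 and 36 cells in HET and 85.8% and 75% of 113 and 140 thinned cells in COP1 KO. The difference was 29.2 points (SD 10.1 in HET and 7.67 in COP1 KO, exact permutation p = 0.33). It was 19.3 points with 2 or more genes. Without thinning it was 9.75 points and the genotypes overlapped (70.6% and 100% against 96.5% and 93.6%, exact permutation p = 1). The share with 10 or more G2 and M phase counts was 26.5% and 33.3% in HET, against 47.8% and 45.7% in COP1 KO (exact permutation p = 0.33). In summed counts 42 of the 46 members tested had a log2 difference above 0 (median 0.38, against -0.01 over all genes). In 20 both COP1 KO libraries lay above both HET libraries, as in 22.3% of all genes. By edgeR 0 passed, as they did by DESeq2, where 0.184% of 8152 genes passed edgeR, and 5 had an unadjusted edgeR p under 0.05, against 9.96% of all genes. Tipin, a subunit of the fork protection complex, had 136 and 218 CPM in HET and 336 and 269 CPM in COP1 KO (log2 difference 0.74 ± 0.22, adjusted p = 0.301), and it passed without the filter on low counts (0.84, adjusted p = 0.0215). HET replicate 1 stood low, with a summed level of 2730 CPM against 4590, 5390 and 4460 CPM in the other libraries. The class itself moved with genotype. Of its 7 markers 4 were lower in both COP1 KO libraries and none was at 0, Pdgfra with 283 and 268 CPM against 106 and 159 CPM and Sox10 with 140 and 106 CPM against 62.8 and 86.8 CPM. Their sum was 2370 and 2620 CPM against 2360 and 2340 CPM. Of the 12 radial glia markers 4 were higher and 4 lower in these cells, with a sum of 17400 and 20800 CPM against 15300 and 17000 CPM. Vim was among the 4 higher, with 1110 and 1770 CPM against 3060 and 3020 CPM. Fabp7 was among the 4 lower, with 12500 and 14600 CPM against 7820 and 9790 CPM. The part of these markers in the result was not tested.

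A further 61 replication genes outside the 50 were followed for context. In radial-glia-like cells against excitatory neurons 52 of 61 were higher and 3 lower (median log2 difference 1.67). Of the 14105 genes tested, 5196 and 5515 were called higher and lower. In intermediate-progenitor-like against radial-glia-like cells 8 were higher and 33 lower, where 28.2% and 28.5% of all genes tested were. In ganglionic-eminence-progenitor-like against radial-glia-like cells 38 were higher and 1 lower, where 26.5% and 27% of all genes tested were. Between genotypes 0 of 60 and 0 of 57 passed edgeR in the intermediate and ganglionic eminence progenitor classes, where 0.463% and 0.0226% of all genes did. In radial-glia-like cells 1 of 61 passed edgeR, where 3.01% of all genes did. It was Rrm2b, a p53-inducible small subunit of ribonucleotide reductase that supplies nucleotides outside S phase. It had 78.2 and 88.2 CPM in HET and 41.7 and 47.1 CPM in COP1 KO radial-glia-like cells (log2 difference -0.86 ± 0.14, edgeR adjusted p = 0.0121). Its values were lower in both COP1 KO libraries in the other classes too, with 89.5 and 106 CPM against 49 and 69.1 CPM in intermediate progenitors (adjusted p = 0.165) and 79.7 and 94.2 CPM against 52.3 and 54.4 CPM in excitatory neurons (adjusted p = 0.248). Rrm2, its S phase counterpart among the 50, did not pass in these comparisons, as given above.

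Last, the genes outside the 50 whose levels were most like those of Mcm2 and Pcna were sought over 14 cell classes, each pooled over the libraries and the unnamed cells taken as 1 of them, among 7849 genes with a mean of at least 20 CPM. For Mcm2 they included Aurkb, Fignl1, Mki67 and Tpx2, with Spearman's rho of 0.982 to 0.974. For Pcna they were Tpr, Scaf11, Tk1, Etf1 and Dek, with rho of 0.987 to 0.978. Tpr had the highest rho but a Pearson's r (log2 levels) of 0.766, against 0.892 to 0.946 for the others. Mcm2 itself went from 5.64 to 7.37 CPM in excitatory neurons to 227 to 298 CPM in intermediate progenitor cluster 18, and Pcna from 18.7 to 19.7 CPM to 113 to 162 CPM. These are descriptions over classes that share libraries and depth, with the smallest class holding 21 cells.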

How the data were processed

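Droplet single-cell libraries (10x Chromium 3′ v2, each on 1 HiSeq4000 lane) of 2 HET and 2 COP1 KO samples were used, grouped by the labels. The deposited tables hold whole-number counts per gene and barcode. Per the submitters' processing notes, GSNAP and GRCm38/mm10 were used. The sources used here do not give the counter, annotation, UMI collapsing or barcode calling. Of 19237 barcodes, 222 with fewer than 500 genes, 1 with over 10% mitochondrial counts and 233 with a Scrublet score over 0.25 were removed (the automatic threshold marked 12, 0.0631%). Gene rows named by a number only (3065, 1.69% of counts) and 33 copies of other rows (1.33%) were left out, none of them a member.

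Cells were clustered (scanpy 1.11.5, 2000 variable genes, 30 components, 15 neighbours, Leiden resolution 1.0) without 214 cell cycle and histone genes. A class name needed 5 detected markers, a limit set after seeing the data. Counts were summed per library and class and tested with edgeR 4.0.16 (TMM, filterByExpr, quasi-likelihood, Benjamini-Hochberg over all genes tested), with the library as a block between classes and with DESeq2 1.42.0 as an alternative. Scripts were tested on simulated data. Shares were compared by exact permutation of libraries, two-sided. Intervals cover counting error only. Genes were named by role, those with the largest and smallest differences between classes, and by the lowest p between genotypes. The members and lists were chosen with earlier results of these data known. Other settings, replicates left out and other clusterings were tried. For the counts of members called in them, and by DESeq2, the share over all genes is not given here. 1 gene of the likeness ranking is not reported here.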

Additional observations from a re-analysis of the deposited data

Results flagged for a closer look

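The genotype difference of Atad2 differed between intermediate-progenitor-like and radial-glia-like cells by 0.818 in log2 units (adjusted p = 0.0283 with edgeR, and 0.112 to 0.203 with 1 library left out). The share of radial-glia-like cells with counts of 3 or more of the 50 genes differed between COP1 KO and HET by -7.62 percentage points, and that of oligodendrocyte-precursor-like cells by 29.2 points. In cells thinned to 2000 counts the libraries of the 2 genotypes did not overlap in either class, and the directions were opposite. Without thinning the difference in oligodendrocyte-precursor-like cells was 9.75 points and the genotypes overlapped. The difference between the 2 classes was not tested.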

How the results depend on the processing

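HET libraries could not be paired with COP1 KO libraries because the labels give the libraries no replicate numbers. The replicate numbers used here follow the order of the samples. Clustering with all variable genes turned the log2 difference between intermediate-progenitor-like and radial-glia-like cells for Cdc45 (0.543), Mcm2 (0.376), Cdc6 (0.291), Tyms (0.351), Atad2 (0.359), Ccne1 (0.406), Rad51ap1 (0.105) and Exo1 (0.0328), and left 22 members called, against 21 with DESeq2. In the same contrast leaving out a library gave -0.00194 to 0.0695 for Nasp and -0.287 to 0.00414 for Atad2. Between ganglionic-eminence-progenitor-like and radial-glia-like cells Rfc2 ranged from -0.113 to 0.0395 with a library left out. In the first planned division Gins1 was -0.243 with library totals and -0.0513 to 1.79 with a library left out (-0.0195 without HET replicate 2), and 3 members were called with library totals, 1 with DESeq2 and 0 to 4 with a library left out. From 10 to 29 to 30 or more counts Rrm1 was -0.00269 with library totals and -0.0601 to 0.0748 with a library left out, and Usp1 0.0526 without the filter, -0.128 to 0.138 with a library left out and 0.0173 with all variable genes. Among cells with 10 or more G2 and M phase counts, intermediate against radial glia, Ung was 0.19 and Slbp -0.071 with all variable genes, with a library left out Slbp ranged from -0.176 to 0.304 and Usp1 from -0.0712 to 0.0736, and Usp1 was -0.00812 without the filter. For ganglionic eminence against radial glia Gmnn ranged from -0.0144 to 0.143 with a library left out. DESeq2 called 19 and 18 members in these contrasts. Between genotypes, leaving out a library gave 0 to 3 calls in the whole library, 0 to 1 in radial-glia-like and in ganglionic-eminence-progenitor-like cells and 0 to 2 in radial-glia-like cells with 10 or more G2 and M phase counts. Without the filter 1 was called in the last and 1 in oligodendrocyte-precursor-like cells. The class-by-genotype term gave 0 calls with DESeq2 and 0 with any library left out.

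The difference in the share of cells with 3 or more members, in percentage points, ranged with a library left out from -8.59 to -6.64 in radial-glia-like, -2.52 to 3.72 in intermediate-progenitor-like, -2.24 to 1.92 in ganglionic-eminence-progenitor-like, -0.489 to 1.23 in excitatory-neuron-like and 22.1 to 36.3 in oligodendrocyte-precursor-like cells. Without COP1 KO replicate 1 it was -0.596 in intermediate and 0.61 in ganglionic eminence progenitors. With 2 or more members it was -5.02 in radial glia, 19.3 in oligodendrocyte precursors, -0.146 in intermediate and 1.39 in ganglionic eminence progenitors and -0.0901 in neurons, and with 5 or more -5.93 in radial glia and -1.21 in intermediate progenitors. At 1000 counts it was -6.2 in radial glia, 0.274 in ganglionic eminence progenitors and -0.0025 in neurons. Without thinning it was -2.7, -7.77, 0.526, -4.5 and 9.75 in radial glia, intermediate and ganglionic eminence progenitors, neurons and oligodendrocyte precursors. With all variable genes it was 2.83 in ganglionic eminence progenitors. The cause was not tested. With 2 libraries per genotype the smallest permutation p is 0.33, and 34 and 36 oligodendrocyte-precursor-like cells in HET limit that class.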
